A study of Arabidopsis thaliana with 12 samples.

Results

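The afternoon step compares Columbia wild type Arabidopsis seedlings harvested at 6pm with seedlings harvested at 12pm, both in the light. It takes the 3 arrays titled 6pm and the 3 titled 12pm, 6 of the 12 wild type arrays used here, and the difference is 6pm minus 12pm. The seedlings were 10 days old, and grew on agar with full-strength Murashige and Skoog salts and 1% sucrose in days of 16 h light followed by 8 h darkness. Lights came on at 6am, so the 12pm plants had 6 h of light behind them and the 6pm plants 12 h, with 4 h of light still to come. The other 6 arrays, from 6am and from 12am in the dark, served for the estimate of spread and for the levels at the rest of the day. Total RNA of the aerial part was hybridised to Affymetrix arrays, and each value is a log2 expression level of a probe set, a group of short probes for 1 transcript. The labels do not say whether replicates are separate cultures, so the p-values rest on the scatter among these arrays, and that scatter may be technical.

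In leaves, transcript levels through the day are set by the circadian clock, by light and by the sugar that photosynthesis supplies. The plant clock is a loop of repressors: morning factors such as CCA1 and LHY repress genes that peak late in the day, and evening proteins in turn repress the morning genes. GIGANTEA (GI) is an evening-phased protein that stabilises other clock and flowering regulators, and COR27 with its relative COR28 (AT4G33980) encodes a cold-induced regulator that links the clock to freezing tolerance and light signalling. Starch is laid down during the light and broken down in the dark, and the transcripts of several of its enzymes cycle each day.

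Of 14185 probe sets tested with limma's moderated test, 2024 (14.3%) were called at an adjusted p below 0.05. Of these, 905 (6.38%) were higher at 6pm and 1119 (7.89%) were lower. The replicate number in the titles tracked a shared deviation of the 12pm and 6pm arrays, and with it as a block 3303 were called, 1635 higher and 1668 lower, all 2024 among them. Without 12pm replicate 2 or 3 the calls numbered 1313 and 1340, with 504 and 568 rises, and without 6pm replicate 1 or 3 the rises numbered 597 and 582. The median difference of the called falls was -1.07 on the log2 scale against 0.75 for the called rises, while the median over all tested probe sets was 0.02. Changes of at least 2-fold numbered 575 falls and 225 rises, changes of at least 4-fold 140 and 28, and changes of at least 8-fold 45 and 12, with means below a log2 of 4 set to 4. Falls outnumbered rises at each of these sizes. For 12161 probe sets without a call, the 95% interval of the difference was set against a 2-fold change either way. It stayed within that change for 10252 and reached past it for 1909. In those 1909 the lack of a call does not mark a change smaller than 2-fold. Some of their intervals lay wholly above or wholly below no change, as in LHCB4.3 (0.257 to 1.395) and DFR (-2.736 to -0.046).

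**Figure D1:**
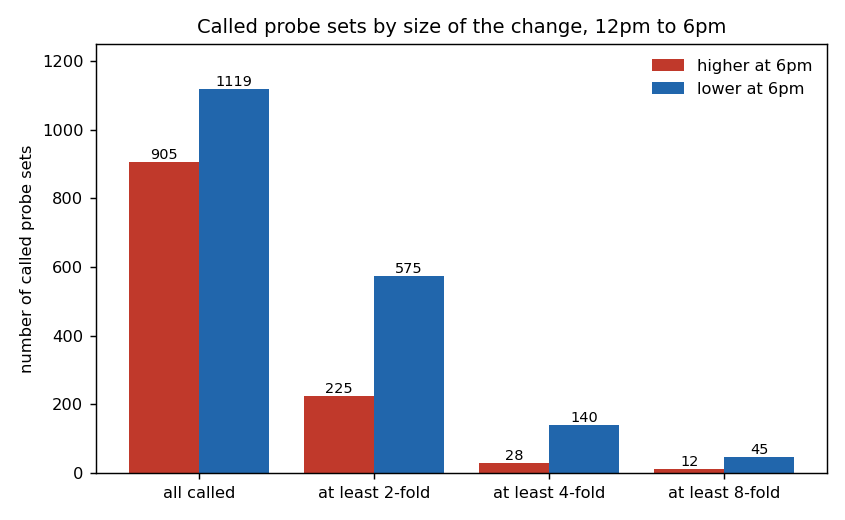
Numbers of called probe sets by size of the change from 12pm to 6pm, in 3 arrays per time, red for higher and blue for lower at 6pm. Bars start at 0, and folds use means below a log2 of 4 set to 4. Of all calls 905 were rises and 1119 falls, and of changes of at least 8-fold 12 were rises and 45 falls.

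The 6pm arrays lay wholly above or wholly below the 12pm arrays in 4604 probe sets (32.5%), and in 2013 of the 2024 called ones. Calls were about as frequent among dim as among bright transcripts, with 13.6% of the 3547 dimmest and 15.6% of the 3546 brightest probe sets called. Of 7676 genes with a named probe set 488 (6.36%) were called higher and 553 (7.20%) lower, and the tested genes called higher or lower had median lengths of 2208 and 2132 bases against 2331 for all tested.

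**Figure D2:**
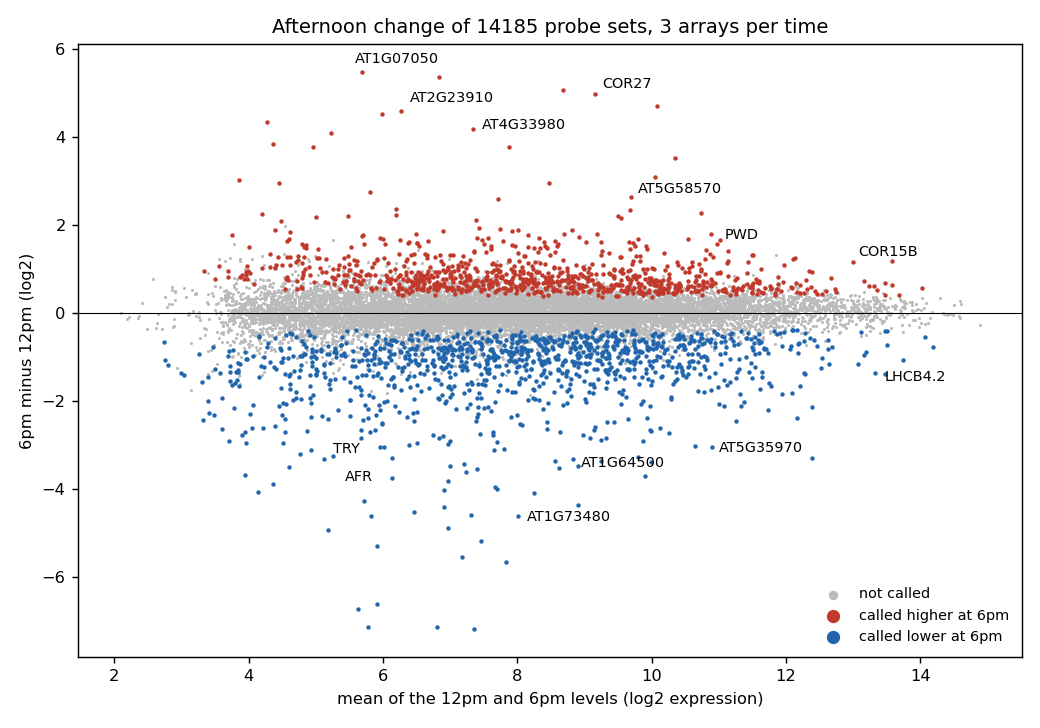
Difference between 6pm and 12pm (log2) against the mean of the 2 levels (log2 expression) for 14185 probe sets, with called rises in red, called falls in blue and the others in grey. Called changes occur over the whole range of levels, and the falls extend further from 0 than the rises.

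Both tested clock genes fell through the afternoon. GI was at 8.48, 8.75 and 8.02 on the 12pm arrays and at 7.08, 7.52 and 7.61 on the 6pm arrays. All 3 arrays of 6pm were below those of 12pm, and the fall was 1.01 ± 0.19 (SE) on the log2 scale (adjusted p = 0.00375). RVE6 (AT5G52660), a MYB-like factor related to the morning genes but an activator of evening genes, was at 7.44, 7.65 and 7.57 at 12pm and at 6.11, 6.41 and 6.44 at 6pm (adjusted p = 0.000529). Of the 11 morning and 14 evening clock genes listed, no other had a named probe set.

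The cold-response genes divided, with 3 of 8 called higher and 1 lower, against 488 and 553 of 7676 genes in all. Their median difference was 0.70, beside 0.03 for all genes. COR27 was at 6.89, 6.59 and 6.51 at 12pm and at 11.34, 11.79 and 11.81 at 6pm. The rise was 4.98 ± 0.25 (31.5-fold, adjusted p = 2.25e-07), and the groups were far apart. COR28 went from 5.77, 5.21 and 4.81 to 9.38, 9.44 and 9.46, a rise of 4.16 ± 0.42 (adjusted p = 5.38e-05). The pair thus rose together, the first from a trough at 12pm and the second from a level that was as low at 6am. COR15B, which encodes a chloroplast protein that protects membranes during freezing, was already high at midday, with 12.51, 12.37 and 12.40, and reached 13.61, 13.49 and 13.65 (adjusted p = 0.00228).

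COR15A, the near relative of COR15B, was at 12.61, 12.65 and 12.71 at 12pm and at 12.60, 13.02 and 12.75 at 6pm, and the interval of its difference ran from -0.57 to 0.83. The arrays overlapped. COR47, a dehydrin, had a difference of 0.24 ± 0.20 (adjusted p = 0.517). LTI30, another dehydrin gene, went the other way, from 9.45, 9.39 and 9.71 to 7.77, 8.60 and 8.73 (adjusted p = 0.00779). AT4G30650, of a family of small membrane proteins induced by cold and salt, was at 11.19 on average at 12pm and 12.51 at 6pm, a difference of 1.32 ± 0.41 that limma did not call (adjusted p = 0.0562) and the block did (adjusted p = 0.0104). STZ, a zinc-finger repressor induced by many stresses, was at 7.74, 6.42 and 6.76 at 12pm and at 7.84, 3.70 and 3.88 at 6pm (adjusted p = 0.197). Replicate 1 of STZ did not change while replicates 2 and 3 were lower at 6pm.

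Of 5 flowering-time genes 1 was called higher and 1 lower, beside 6.36% and 7.2% of all genes. AT1G07050, which encodes a protein with the CCT domain of CONSTANS, was at 3.19, 2.87 and 2.80 at 12pm and at 8.51, 8.22 and 8.55 at 6pm. The rise was at least 21.5-fold, since its 12pm level lay below a log2 of 4 (adjusted p = 2.85e-09). SNZ, a floral repressor of the AP2 family, slipped from 8.18, 8.12 and 8.21 to 7.17, 7.78 and 7.38, by 0.73 ± 0.15 (adjusted p = 0.00802). Its relative SMZ was at 4.26, 4.35 and 4.26 and then at 4.48, 5.19 and 4.67, all 3 arrays higher at 6pm, and was called only with the block (adjusted p = 0.0676 without and 0.0434 with it). CDF5 (AT1G69570), a Dof-type repressor of flowering, had a difference of -0.16 ± 0.22. The related AT1G26790 sat at the floor of the table, 2.1, on all 6 arrays.

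Among light-signalling genes AFR, an F-box protein needed for responses to far-red light through phytochrome A, was at 7.35, 8.23 and 8.45 at 12pm and at 3.65, 5.04 and 4.11 at 6pm. Its fall was 3.75 ± 0.34, or 13.4-fold (adjusted p = 2.49e-05). BIC2 (AT3G44450), an inhibitor of the blue-light receptor cryptochrome, was at 7.88, 8.45 and 8.56 and then at 4.96, 5.87 and 5.64, a 7.00-fold fall (adjusted p = 0.00279). It is one of several genes named here after their values were seen. HYH, a relative of the light-signalling factor HY5, was at 9.09 ± 0.20 at 12pm and 8.73 ± 0.31 at 6pm (SD, n = 3), with overlapping arrays (adjusted p = 0.274).

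Several of the large afternoon falls were in transcripts that stood at a midday maximum. AT1G73480, of the alpha/beta hydrolase family, was at 9.99, 10.57 and 10.40 at 12pm and at 5.36, 6.12 and 5.65 at 6pm, a 24.4-fold fall. AT1G13650 fell from 8.57, 9.14 and 8.48 to 4.33, 4.49 and 3.81, a difference of -4.52 ± 0.30. AT3G46370, of the leucine-rich repeat kinase family, went from 7.98, 7.75 and 7.82 to 3.53, 3.56 and 3.65, at least 14.4-fold lower. AT4G13800 fell from 8.60, 9.06 and 9.10 to 4.41, 5.22 and 5.07. In all 4 genes the 12pm mean was the highest of the day by at least 2.78 on the log2 scale over 6am, and the adjusted p of the afternoon fall was between 1.38e-07 and 2.01e-05.

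Other transcripts, AFR among them, were high at 6am as well as at midday and dropped in the afternoon. AT2G15020 was at 7.40, 8.31 and 8.67 at 12pm and at 3.48, 3.54 and 3.53 at 6pm, at least 17.5-fold lower. Its 6am mean was 8.67 ± 0.07 (SD, n = 3). AT5G35970 went from 12.35, 12.45 and 12.46 to 9.27, 9.31 and 9.53, and AT1G69480, of the PHO1 family of phosphate exporters, from 8.38, 7.69 and 7.62 to 4.67, 4.91 and 5.10. Both were about 8-fold lower at 6pm (8.29-fold and 8.01-fold). AT4G12980 and AT5G62280 were not of this pattern: they had risen by 2.26 and 1.54 in the morning, and fell 11.2-fold and 8.63-fold. Both had their lowest mean of the day at 6pm, and AT5G62280 rose again by 1.33 to 12am (adjusted p = 0.00025). AT1G62510, of the lipid-transfer protein family, had also risen in the morning, by 1.975. It fell from 12.03, 12.14 and 12.29 to 8.17, 9.76 and 9.47 with the lowest value on replicate 1.

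In another pattern 6pm was the low point of the day. TRY, a small MYB protein that represses the formation of leaf hairs, was at 7.03, 7.80 and 7.65 at 12pm and at 4.16, 5.30 and 3.84 at 6pm, and was back at 7.14 ± 0.55 at 12am. AT1G64500, of the glutaredoxin family, went from 10.67, 10.20 and 10.63 to 7.73, 6.87 and 6.91, a 10.1-fold fall, and was at 10.15 ± 0.60 at 12am. The rise after 6pm was called for both genes (adjusted p = 0.000415 and 5.30e-05), as it was for AT2G32160 and AT1G69160, which fell 9.82-fold and 14.1-fold in the afternoon. For these 4 genes the afternoon step differed from the evening step by 5.14 to 6.31 on the log2 scale (adjusted p between 7.29e-06 and 0.000174). They were taken from the largest falls and grouped after their values were seen. A rise after 6pm and a large contrast follow in part from that choice, so these p-values are no separate support.

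**Figure D3:**
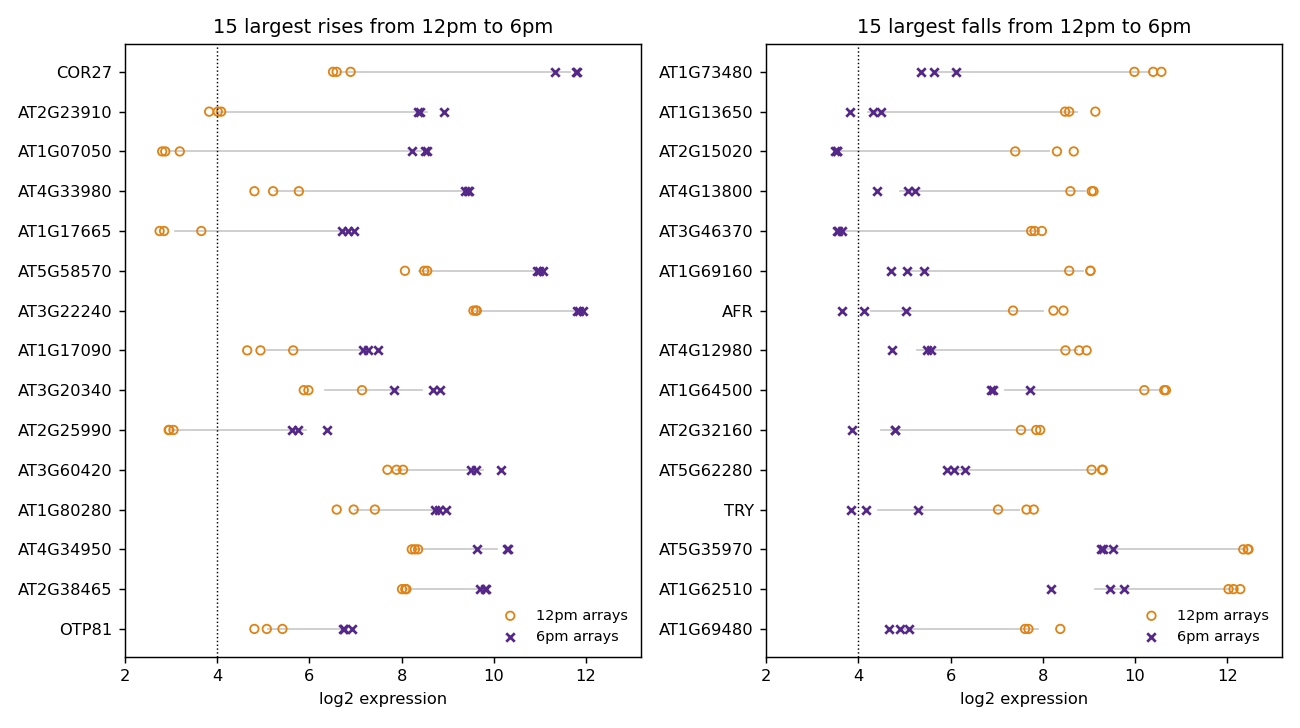
Log2 expression on each of the 3 arrays of 12pm (open circles) and of 6pm (crosses) for the 15 genes with the largest called rises and the 15 with the largest called falls. The dotted line marks a log2 of 4, used as the lower level in folds, and in each gene the 2 groups of arrays do not touch, as the choice of these genes required.

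Beside COR27, COR28 and AT1G07050, the largest rises were in genes of little known function. AT2G23910, of the Rossmann-fold NAD(P)-binding family, was at 4.08, 4.01 and 3.82 at 12pm and at 8.39, 8.92 and 8.37 at 6pm, at least 23.5-fold higher (adjusted p = 8.42e-08). AT1G17665 went from 3.65, 2.75 and 2.85 to 6.85, 6.70 and 6.96, and AT5G58570 from 8.56, 8.07 and 8.49 to 10.99, 10.95 and 11.07. AT3G22240 was tight on both groups of arrays, with 9.63, 9.61 and 9.56 and then 11.81, 11.93 and 11.85. AT3G20340 rose 4.33-fold with wide spread at 12pm, where replicate 1 was at 7.14 and the others at 5.88 and 5.98. AT2G25990, at least 3.80-fold higher at 6pm, is measured by a probe set whose name marks probes shared with other transcripts.

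Other genes had already risen in the morning or came up from a midday low. AT4G34950, of the major facilitator family of membrane transporters, was at 8.22, 8.29 and 8.36 at 12pm and at 9.65, 10.30 and 10.28 at 6pm, after 3.69 ± 0.55 at 6am. AT2G38465 rose by 1.75 from 6am to 12pm and by another 1.71 to 6pm, and the steps did not differ beyond their spread (adjusted p = 0.933). AT1G80280, also of the alpha/beta hydrolase family, and AT3G60420 rose 3.61-fold and 3.70-fold from a midday low. AT1G17090, also lowest at midday, went from 4.65, 5.65 and 4.94 to 7.48, 7.17 and 7.26, a 4.68-fold rise (adjusted p = 0.000125). THIC, which makes the pyrimidine part of thiamine in the chloroplast, was at 10.83, 10.86 and 10.84 at 12pm and at 12.31, 11.95 and 12.22 at 6pm, a 2.49-fold rise (adjusted p = 3.35e-05).

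**Figure D4:**
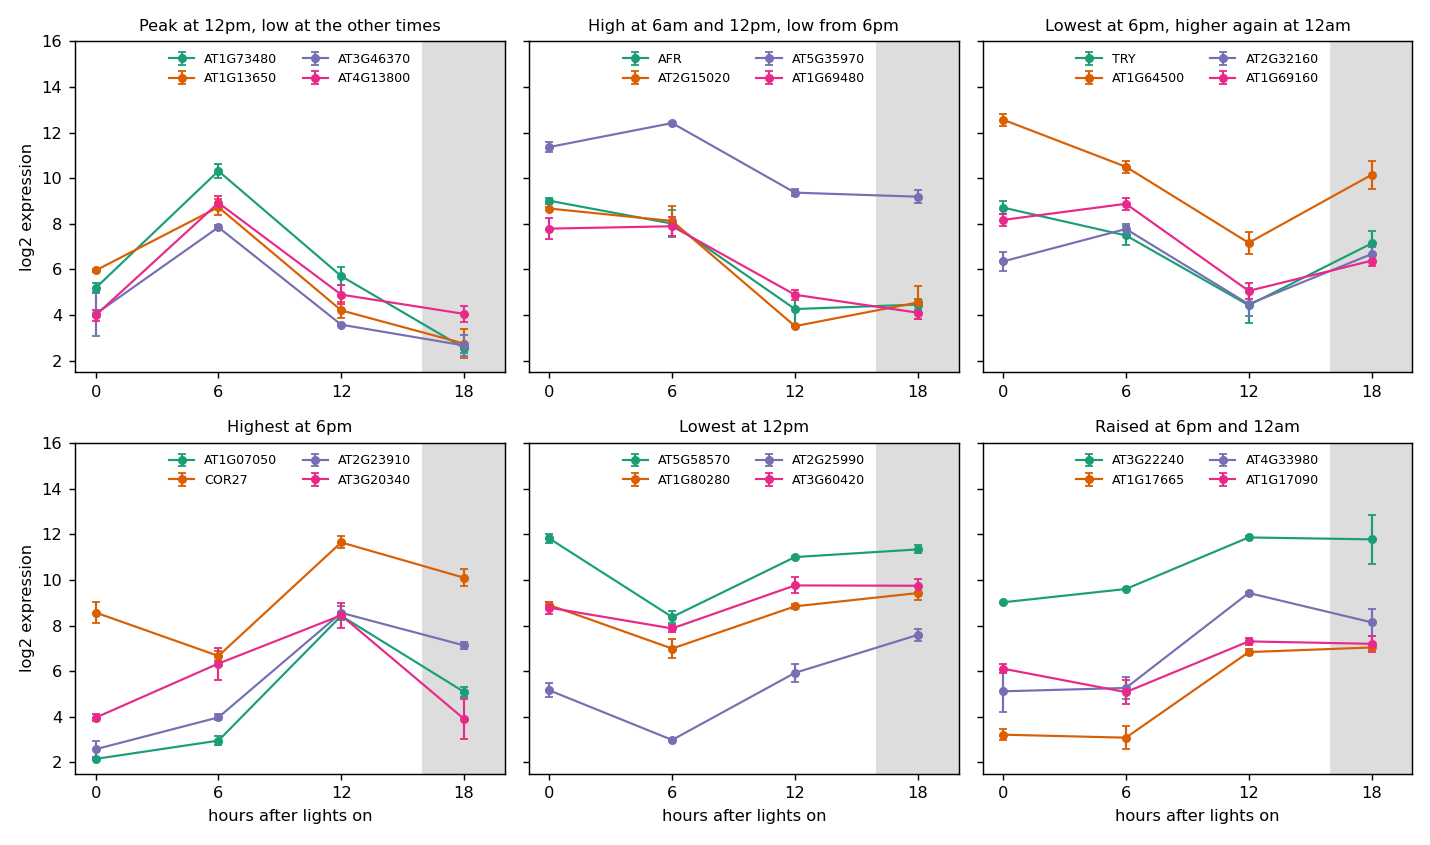
Mean log2 expression with the SD of 3 arrays against hours after lights on (0 is 6am, 6 is 12pm, 12 is 6pm and 18 is 12am, dark shaded) for 24 of the named genes in 6 groups drawn up after their values were seen. The falls come from genes that peak at 12pm, genes high at 6am and 12pm, and genes lowest at 6pm. The rises come from genes highest at 6pm, lowest at 12pm, or raised at both 6pm and 12am.

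Words for photosystem subunits and antenna proteins matched 5 tested genes, of which 4 had an unadjusted p below 0.05. Over all 14185 probe sets 3778 had a p this low. Of the 5, 2 were called lower and 0 higher, beside 7.2% and 6.36% of all genes. Among 18 tested genes with PSB symbols 1 was called lower and 0 higher, and 3 had an unadjusted p below 0.05. The 1 called was PSBY, also among the 5. The 18 include psbD, encoded in the plastid, with a difference of -1.07 that was not called (adjusted p = 0.498). LHCB4.2, of the light-harvesting antenna of photosystem II, was at 14.25, 14.22 and 14.34 at 12pm and at 13.04, 13.24 and 13.34 at 6pm, a 2.09-fold fall (adjusted p = 0.00015). Its close relative LHCB4.1 was at 14.61, 14.63 and 14.58 and then at 14.49, 14.52 and 14.61, with an interval from -0.29 to 0.16. LHCB4.3, the third gene of the family, was at 7.10, 7.12 and 7.63 and then at 8.29, 7.91 and 8.13, and was called higher only with the block (adjusted p = 0.0557 without and 0.0334 with it). All 3 genes encode the same antenna protein, and limma called 1 of them without the block. PSBY, a small protein of photosystem II, was at 13.75, 13.62 and 13.76 and then at 13.17, 13.45 and 13.30 (adjusted p = 0.0392). Its call was lost on leaving out 12pm replicate 1 (0.104), 2 (0.0656) or 3 (0.12) or 6pm replicate 1 (0.136) or 3 (0.0971). PSBW, another small subunit, had a difference of -0.26 ± 0.11 and was not called (adjusted p = 0.148). In the Calvin cycle, limma called none of 3 genes, beside 13.6% of all genes in either direction, and 1 had an unadjusted p below 0.05. PRK and SBPASE changed by 0.02 and 0.08, and RCA, the activase of Rubisco, had a difference of -0.41 ± 0.13 (adjusted p = 0.0615, and 0.0367 with the block).

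In pigment synthesis 3 of 4 tested genes were called lower and 0 higher, beside 7.2% and 6.36% of all genes. PORB, a protochlorophyllide oxidoreductase, was at 12.60, 12.57 and 12.75 at 12pm and at 11.76, 11.59 and 11.79 at 6pm (adjusted p = 0.00212). CHLP (AT1G74470), the geranylgeranyl reductase that makes the tail of chlorophyll, fell by 0.90 ± 0.15. The third, the lycopene cyclase gene LYC, fell by 0.78 ± 0.23 (adjusted p = 0.0399), but leaving out 12pm replicate 1 (0.0823), 12pm replicate 3 (0.155), 6pm replicate 1 (0.078) or 6pm replicate 2 (0.119) ended the call, and its adjusted p ran from 0.00637 to 0.155 over all alternatives. CHLM had a difference of -0.26 ± 0.12 and was not called.

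Of 2 tested genes of starch breakdown 1 was called higher, and of 3 of starch synthesis 2 were called lower. Over all genes 6.36% were called higher and 7.2% lower. PWD (AT5G26570), a dikinase that phosphorylates starch and so opens it to breakdown, was at 10.32, 10.07 and 10.23 at 12pm and at 11.83, 11.60 and 11.84 at 6pm, a 2.93-fold rise (adjusted p = 9.88e-06). DPE1, which acts on the maltotriose released, was at 10.91 ± 0.11 and 11.19 ± 0.11 (SD, n = 3) and was not called. Among the synthesis genes APL4, a large subunit of ADP-glucose pyrophosphorylase, fell from 5.80, 5.29 and 5.57 to 4.65, 3.98 and 4.38 (adjusted p = 0.00284). SBE2.2, a branching enzyme, fell by 0.69 ± 0.18 (adjusted p = 0.0227, from 0.00689 to 0.0795 over its alternatives). Leaving out 12pm replicate 1 (0.0669), 12pm replicate 3 (0.0795) or 6pm replicate 2 (0.0662) ended the call. APL3 had a difference of -0.09 ± 0.21. PPDK, a pyruvate phosphate dikinase named after its values were seen, fell 2.52-fold.

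Words for sugar transporters and sucrose enzymes matched 8 genes, among them the chromatin remodellers CHB3 and SWI3A. Of the 8, 0 were called higher and 1 lower, beside 6.36% and 7.2% of all genes. That one, SAG29 (SWEET15), a sugar efflux carrier known from senescing leaves and embryos, was at 6.22, 6.68 and 6.19 at 12pm and at 2.70, 3.27 and 3.50 at 6pm, at least 5.15-fold lower (adjusted p = 2.14e-06). SWEET11, which exports sucrose from the leaf, differed by 0.50 ± 0.20 (adjusted p = 0.126, and 0.0146 with the block), and SWEET17, a fructose carrier, by -0.92 ± 0.34 (0.1, and 0.0142 with the block). The following falls were picked after their values were seen, and the transporter-family gene AT4G34950, described above, rose. AT1G19450 and SFP2, both of the ERD6-like family of sugar transporters, fell 7.70-fold and 4.52-fold. NPF6.4 (AT3G21670), of the nitrate transporter family, was at 8.41, 9.34 and 9.22 and then at 6.35, 6.47 and 6.01, a 6.55-fold fall (adjusted p = 2.05e-05). THI2.2, a thionin, an antimicrobial peptide, fell from 11.08, 11.45 and 11.48 to 7.83, 9.19 and 8.95 (6.40-fold).

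Of 16 genes for expansins and xyloglucan enzymes, which loosen or rebuild the cell wall during growth, 1 was called higher and 3 lower, and their median difference was -0.39 beside 0.03 for all genes. With the block 2 were called higher and 5 lower, beside 1635 and 1668 of all 14185 probe sets. Without it 6.36% of all genes were called higher and 7.2% lower. The expansin EXPB1 fell from 5.47, 6.65 and 6.67 at 12pm to 3.78, 4.25 and 3.75 at 6pm (adjusted p = 0.00123). XTH32 and EXGT-A3 fell by 1.21 ± 0.24 and 0.91 ± 0.16, whereas EXPA20 rose from 3.83, 3.52 and 4.47 to 5.02, 5.07 and 5.56 (adjusted p = 0.00893). EXPA8 had a wide difference of -1.41 ± 0.51 and was called only with the block (adjusted p = 0.0952 without and 0.000125 with it).

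Among transcription factors, 2 of 7 bHLH genes fell, beside 7.20% of all genes: BHLH101, a factor of the iron-deficiency response, from 9.23, 9.79 and 9.43 to 7.72, 7.99 and 7.72 (adjusted p = 0.000224), and bHLH34, an upstream activator of that response, from 7.15, 7.48 and 7.48 to 5.81, 6.69 and 6.00. The related regulators bHLH104, bHLH115 and ILR3 had differences of 0.15, 0.36 and -0.14 and were not called. Of 13 bZIP genes 3 were called lower and 0 higher, BZIP34 with the largest fall (1.25 ± 0.28, adjusted p = 0.0106). The calls of the other 2, AT2G40620 (bZIP18) and AT4G38900 (bZIP29), were each lost on leaving out any of several arrays, with an adjusted p up to 0.125 and 0.0959. Both MYB genes found fell, MYBC1 by 0.94 ± 0.21 and MYBH (AT5G47390) by 1.12 ± 0.26, the latter with an adjusted p from 0.000862 to 0.0692 over its alternatives. Its call was lost without 12pm replicate 2 (0.0692) or 3 (0.0652) and without 6pm replicate 1 (0.0515) or 3 (0.0663).

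None of 6 WRKY genes was called by limma, beside 13.6% of all genes called in either direction. An unadjusted p below 0.05 was found for 2 of the 6, beside 3778 of all 14185 probe sets. WRKY53, a regulator of leaf senescence, was at 8.17, 7.22 and 7.09 at 12pm and at 8.50, 6.05 and 6.99 at 6pm, with replicate 1 high at both times. The differences of WRKY22, WRKY20, ZAP1, WRKY6 and WRKY47 were -0.90, -0.34, -0.28, -0.22 and 0.38. Calls were also absent by limma among 5 sugar-starvation genes, 3 glucosinolate genes, 3 cell-division genes and 4 histone genes, where 1, 1, 0 and 0 had an unadjusted p below 0.05. In lists this short, beside the shares of all genes, an absence of calls says little about the members. With the block 1 of these was called, beside 3303 of all 14185 probe sets. It was AKINBETA1, a subunit of the energy-sensing kinase SnRK1, with a difference of -0.61 ± 0.20 (adjusted p = 0.0729 without and 0.0294 with the block). The other starvation genes AT3G15450, IVD, MCCA and MCCB had differences of -0.64, -0.51, -0.44 and -0.02. Those of the glucosinolate genes BCAT4, GSTU20 and UGT74B1 were 0.02, 0.06 and 0.40, and those of the kinase genes AUR1 and AUR2 of cell division -0.16 and -0.38. HTR12, the centromeric histone H3 and a member of both lists, had -0.11, and the histone genes HON4, HTB2 and HIS1-3 had -0.10, 0.11 and 0.30. DFR, which makes leucoanthocyanidins on the way to anthocyanins, had a mean of 4.55 ± 0.31 at 12pm and of 3.15 ± 0.02 at 6pm (SD, n = 3), with arrays apart. It was not called with all 12 arrays (adjusted p = 0.172), where its SD at 12am was 1.66, but was called with only the 6 arrays of 12pm and 6pm (0.00307).

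Of 6 genes matched by words for heat shock proteins and chaperones 2 were called higher and 0 lower, beside 6.36% and 7.2% of all genes. The match rests on symbols and synonyms, and it took in BRK1 and CCS, which are not protein-folding chaperones. Hsp70-2, a cytosolic heat shock protein, was at 7.49, 7.22 and 6.92 at 12pm and at 8.72, 8.83 and 8.62 at 6pm, a 2.85-fold rise (adjusted p = 0.000273), and was at 6.71 and 6.36 on average at 6am and 12am. Cpn60beta4, a subunit of the chloroplast chaperonin, rose by 0.72 ± 0.18 (adjusted p = 0.0232). Leaving out 12pm replicate 2 (0.0998) or 3 (0.0533) or 6pm replicate 1 (0.078) or 3 (0.0801) ended the call. The related Cpn60beta2 differed by 0.56 ± 0.20 (adjusted p = 0.0904, and 0.0113 with the block), and CCS, BRK1 and Cpn60beta3 by 0.08, 0.15 and 0.32 without a call.

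Of 10 glutaredoxin and thioredoxin genes matched by symbol or synonym 1 was called lower and 0 higher, beside 7.2% and 6.36% of all genes. The match missed AT1G64500, the glutaredoxin-family gene described above, which was called lower with a 10.1-fold fall. TRXF2, a chloroplast thioredoxin that activates enzymes of carbon fixation in the light, was at 11.20, 11.46 and 11.41 at 12pm and at 9.93, 10.51 and 10.43 at 6pm (adjusted p = 0.00356). A further 13 lists had up to 3 tested members, 18 genes in all, of which limma called 0 and 4 had an unadjusted p below 0.05. Over all genes limma called 13.6% in either direction, and 3778 of all 14185 probe sets had a p this low. The differences ran from -0.58 in HAT2, a homeobox gene induced by auxin, to 0.58 in PPR596, a pentatricopeptide repeat gene. With the block PPR596 (adjusted p = 0.0196), PPR336 (0.0447) and the RNA helicase gene PRH75 (0.0491) were called higher, beside 1635 of all 14185 probe sets. The 15 others were NAC014, AT4G03090, AT5G61590, ATPMEPCRB, ILR3, AT5G46630, PMEPCRF, AQI, AT4G13840, IAA18, ALATS, RH20, SIR, AT3G09720 and HAT2 itself, none of them called in either fit.

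The next 5 families were singled out by their symbols after the values were seen, so their counts describe them and test nothing. Over all genes 6.36% were called higher and 7.2% lower. With the block 1635 of all 14185 probe sets were called higher and 1668 lower. Among 11 subunits of nuclear RNA polymerases (NRP) 3 were called higher and 0 lower, 7 and 0 with the block, and the median difference was 0.49. NRPE7 went from 8.27, 8.20 and 8.12 to 9.23, 8.86 and 9.18 (adjusted p = 0.00248), and NRPB12, a small subunit shared by the polymerases, from 9.39, 9.17 and 9.46 to 10.24, 10.06 and 10.13. The third call, NRPA2 of RNA polymerase I, rose by 0.58 ± 0.14, and was lost without 12pm replicate 2 (0.0684) or 6pm replicate 2 (0.0529).

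Of 5 OTP genes, which encode pentatricopeptide repeat proteins that process organelle RNA, 3 were called higher and 0 lower. OTP81 was at 4.81, 5.42 and 5.08 at 12pm and at 6.76, 6.74 and 6.92 at 6pm, a 3.26-fold rise (adjusted p = 5.61e-05). OTP84 went from 6.16, 6.12 and 6.23 to 7.18, 6.78 and 7.04. OTP85 rose by 0.53 ± 0.14 (adjusted p = 0.0295), a call lost on leaving out any of the arrays of the 2 times except 6pm replicate 1, with an adjusted p up to 0.112. Among 5 CRR genes, needed for the chloroplast NDH complex, CRR22 was called higher, and lost its call without 12pm replicate 2 (0.062) or 3 (0.0658) or 6pm replicate 3 (0.0691). CRR28 was called higher with the block (adjusted p = 0.101 without and 0.0352 with it).

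The large enzyme families changed in both directions. Of 14 SCPL serine carboxypeptidases 3 rose, led by scpl35 from 6.52, 6.56 and 7.08 to 8.51, 8.32 and 8.41, and scpl48 fell from 10.38, 10.39 and 10.92 to 9.13, 9.31 and 9.72. The rise of SCPL49 lost its call without 12pm replicate 2 (0.0513). Of 30 UGT glycosyltransferases 2 were called higher and 4 lower, but the rise of UGT85A3 lost its call on leaving out any 1 of the 6 arrays (adjusted p from 0.0956 to 0.137). UGT71B1 rose from 7.72, 7.62 and 8.17 to 9.22, 9.34 and 9.46 (adjusted p = 6.16e-05), and UGT73C1 fell from 5.85, 5.45 and 5.59 to 3.85, 4.15 and 4.62 (adjusted p = 0.000529). Of 13 cytochrome P450 genes 3 were called lower and 0 higher, beside 7.2% and 6.36% of all genes. CYP71B26 was the brightest of these, at 12.76, 12.21 and 12.48 and then 10.70, 10.62 and 10.90, after 8.06 ± 0.36 at 6am. CYP78A9 and CYP71B35 fell 3.21-fold and 3.03-fold, while CYP71B28 and CYP71B6, of the same subfamily as CYP71B35, had differences of 0.09 and 0.33 and were not called.

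**Figure D5:**
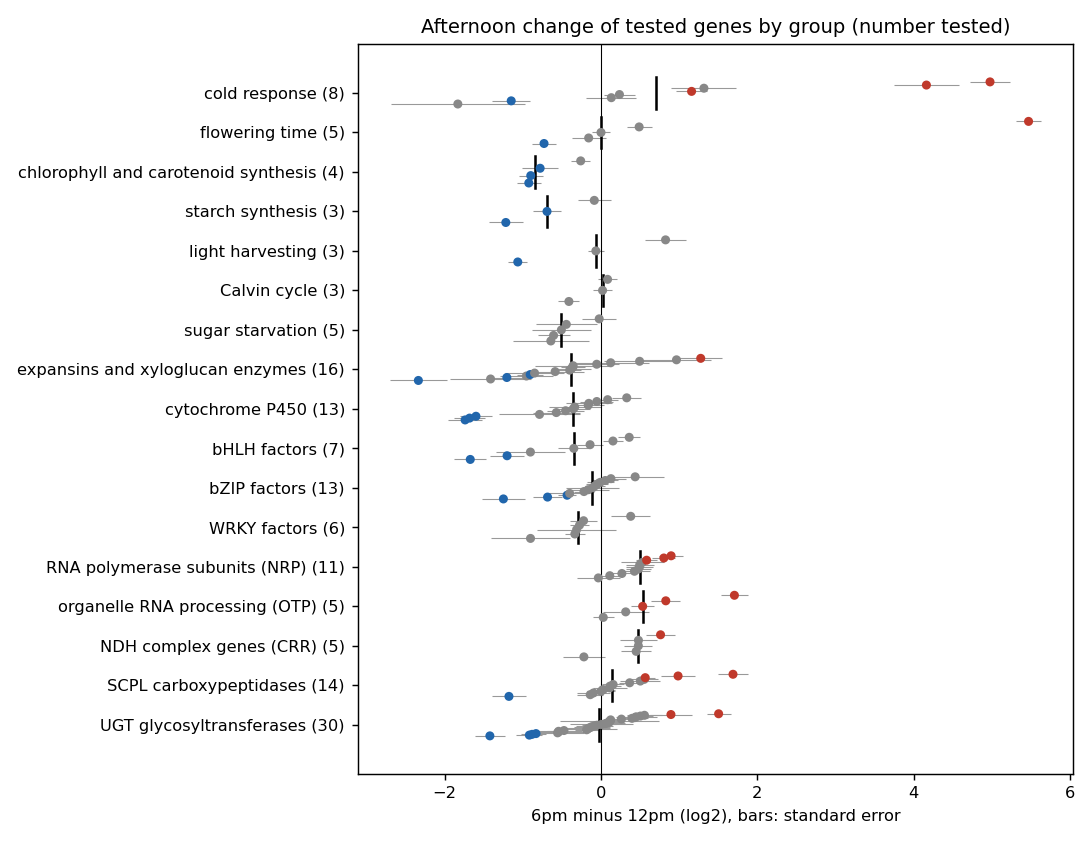
Difference between 6pm and 12pm (log2) of each tested gene in 17 groups, with the standard error as a bar, the group median as a black line, called rises in red and called falls in blue. The number tested stands after each name. The cold-response and flowering groups hold the largest rises, pigment and starch synthesis lie below 0, and the RNA polymerase, OTP and CRR groups lie mostly above it.

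Most of the called transcripts had an extreme of the day at one of the 2 times. Of the 905 rises 606 (67%) had their lowest mean of the day at 12pm, 540 (59.7%) had their highest at 6pm, and 202 had it at 12am. Of the 1119 falls 706 (63.1%) had their highest mean at 12pm, 354 (31.6%) at 6am, and 568 (50.8%) had their lowest at 6pm. These shares follow in part from the choice of the sets on the same arrays. The afternoon step was tested against the morning step, from 6am to 12pm, and differed from it in 3425 probe sets (24.1%). It was also tested against the evening step, from 6pm to 12am, and differed in 1895 (13.4%), or 3175 with the block. Without 12pm replicate 2 or 3 the first count was 2038 and 2199, and without 6pm replicate 3 the second was 1171. The successive steps share the 12pm or the 6pm arrays. For GI the afternoon fall followed a morning rise from 6am, where it sat at the floor, and COR15B had already risen by 5.13 ± 0.20 in the morning.

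The 6am and 12am arrays are no part of the afternoon difference, and share with it only the normalization and the estimate of the spread. Over all tested probe sets 12.5% were called higher at 12am than at 6am and 11.2% lower. Among those that rose in the afternoon 30.4% were higher at 12am and 9.72% lower, with a median difference of 0.18. Among those that fell 7.42% were higher and 47.3% lower, with a median of -0.54, beside 0.01 for all tested. The smaller shares moved most with the fit: the rises lower at 12am made up 15.2% with the block and 20.7% with array weights, and the falls higher at 12am 13.7% and 16.9%. The shares over all probe sets given above are of the fit without block or weights. They were not computed for these other fits, so the shifts cannot be set beside them. COR28 and COR27 among the rises were higher at 12am than at 6am by 3.02 and 1.53, and AT1G07050 and AT2G23910 had means of 2.15 and 2.58 at 6am and of 5.09 and 7.13 at 12am. AFR, AT2G15020 and AT1G69480 among the falls were lower at 12am by 4.55, 4.12 and 3.69. Of 20 called rises under the naming rule 14 were called higher at 12am and 0 lower, and of 41 falls 21 were called lower and 2 higher. The 2 were PORB, higher by 1.12 (adjusted p = 0.000363), and AT2G40620, higher by 0.67 (0.0245). Among rises named outside that rule, UGT85A3, SCPL49, scpl35, CRR22 and THIC were called higher at 12am, by 2.02, 1.72, 0.69, 0.59 and 0.40 (adjusted p between 0.000199 and 0.0388). NRPA2 and AT1G13640 were lower at 12am, with differences of -0.82 and -0.48 (adjusted p = 0.00127 and 0.0168).

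Both genes were called in 47 of 2415 pairs of chromosomal neighbours (1.95%, beside 1.97% for the square of the called share). In 36 of these pairs the direction was the same and in 11 it was opposite. At one place AT1G13640 rose by 1.61 and AT1G13650 beside it fell by 4.52. Large falls in neighbours were in AT2G32150 and AT2G32160 (-2.04 and -3.30), AFR and AT2G24550 (-3.75 and -1.97), and in NPF6.4 (-2.71) beside AT3G21660, which was at least 3.43-fold lower at 6pm. AT3G21660 was at 5.58, 6.07 and 5.69 at 12pm and sat at the floor on the 9 arrays of the other times.

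Replicate 1 stood somewhat apart at both times. Correlations between arrays of 1 time ran from 0.970 to 0.992, highest between replicates 2 and 3. The 67 transcripts encoded in the plastid genome had a median level of 10.12 at 12pm and 9.26 at 6pm on replicate 1, against 10.92 to 10.94 and 10.89 to 11.01 on the others. Without the block limma called 0 of the 67, beside 14.3% of all probe sets, and 0 had an unadjusted p below 0.05, beside 3778 of 14185. With the block 2 were called lower, beside 1668 of all 14185 probe sets. The gap between 3' and 5' probe sets of actin, a sign of RNA integrity and labelling, was 7.07 on replicate 1 of 6pm against 6.04 to 6.27 on the other arrays of 12pm and 6.17 and 6.26 on those of 6pm. The gap for GAPDH was likewise widest there, at 3.74 against 2.60 to 3.24 elsewhere, while that for ubiquitin was 3.15, within the 2.98 to 3.24 of the others. The part of these differences in the results was not tested. Replicates 2 and 3 alone, which are among the arrays behind the 2024 calls, gave 1820 of them again with 0 reversed. The leaf genes RCA, LHCB4.1, LHCB4.2, PRK and SBPASE had means from 13.05 to 14.61. PYK10, an abundant root gene, was at 11.52 and 11.68 (adjusted p = 0.646), the only one of 6 root markers on a named tested probe set. In whole shoots, fewer cells of a type and less RNA per cell cannot be told apart.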

How the data were processed

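The deposited values are log2 expression levels per probe set of 1-colour Affymetrix arrays, which the authors computed by GCRMA (R 3.1, affy 1.42.3), as given in the submitters' processing notes. That method removes a sequence-based background, scales arrays to each other and combines the probes of a set, so a change in total messenger RNA cannot be read from the values, and the lowest value, 2.1, is a shared floor. The set of arrays scaled together is not stated in the labels. Precision is limited by how many arrays there are, since an array has no read depth. The table held 0 columns of other samples. The polysomal RNA and the CCA1-overexpressing line that the series also names were not analysed here.

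The 64 control probe sets and 8561 probe sets with fewer than 3 of the 12 arrays at a log2 of 4 or above were left out. For the other 14185, limma 3.58.1 (R 4.3.3) gave linear models over all 12 arrays with time as a factor, moderated with eBayes (8 residual and 3.44 prior degrees of freedom). Tests were two-sided, with Benjamini-Hochberg adjustment over the 14185 for each comparison, and an adjusted p below 0.05 was called. A mean below a log2 of 4 was set to 4 in folds, which are then written as at least that fold. The code was tested on simulated data with known changes.

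The replicate numbers in the titles of the 12pm and 6pm samples were taken to pair them because the deviations of same-numbered arrays from their group means correlated at 0.564, 0.649 and 0.398. The labels do not state what a number stands for. A limma fit with the number as a block was the alternative, beside other filters, scalings, variance models and subsets of arrays. Where limma is set beside the block in the text, the limma fit without the block is meant.

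Genes were named from the platform annotation, joined to RefSeq names of TAIR10.1. Of 14185 probe sets 7718 named 1 gene, 295 several and 6172 were unlisted and stay unnamed. For a gene with several probe sets the brightest stands. Of 283 loci in 18 lists 46 were tested, and 30 further groups matched by words could use symbols and synonyms alone. The text names the 15 largest called rises and falls between 12pm and 6pm whose arrays do not overlap, all tested clock genes, and the members of lists: each tested member in lists of up to 6, and up to 4 called rises and falls in larger ones. Members, lists and tests were chosen with earlier results of these data known. Genes named beyond this rule, such as uncalled members of larger lists, were chosen after their values were seen. Promoter motifs and sequences were not analysed here.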

Additional observations from a re-analysis of the deposited data

How the results depend on the processing

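With the replicate block, 3303 probe sets were called, 1635 of them higher at 6pm, and the afternoon step differed from the evening step in 3175. A term for replicate 1 alone gave 3205, 1567 and 3041 for the same counts, and array weights gave 3066, 1452 and 3008, with 5400 against the morning step. All 2024 calls of the fit without the block were called with it. Leaving out 1 array of either time gave 1313 to 1714 calls between 12pm and 6pm, 504 to 750 of them higher and 772 to 964 lower, 2038 to 3277 against the morning step and 1171 to 1627 against the evening step. The percents compared between 12am and 6am were 31.3 to 35.3 and 8.98 to 10.7 for the rises and 5.18 to 7.42 and 49.3 to 53.9 for the falls. The lowest totals came without 12pm replicate 2 (1313) and without 12pm replicate 3 (1340). Of the afternoon rises, the percent lower at 12am than at 6am was 15.2 with the block, 14.7 with replicates 2 and 3 only, 14.6 with the replicate 1 term and 20.7 with array weights, and of the falls the percent higher was 13.7, 16.0, 13.8 and 16.9. The shares of all probe sets called between 12am and 6am were not computed for these fits, and the cause of the shifts was not tested. The other filters, scalings, the trended variance and the fit of the 6 arrays kept the counts of calls between the times within 1.5 times. Over 17 settings 2589 differences of 155 named genes were recomputed: 2455 counted as unchanged, 67 lost a call and 67 gained one. Of genes called in the main fit 0 reversed. A change of sign in a gene that the main fit did not call was counted as unchanged. The number of arrays limits what can be seen: the median 95% interval reached 0.418 on the log2 scale to either side, from 0.511 in the 3547 dimmest probe sets to 0.352 in the 3546 brightest.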

Other observations

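The widest changes of the afternoon were on probe sets that name no gene here. Probe set 256266_at was at 10.98, 11.23 and 10.63 on the 12pm arrays and at 3.40, 3.97 and 3.93 on the 6pm arrays, at least 123-fold lower, after 11.54 at 6am. Probe set 257985_at was at 4.77, 3.70 and 4.02 at 12pm and at 9.71, 9.28 and 9.53 at 6pm, 40.7-fold higher. Of the 100 probe sets with the widest changes 83 were lower at 6pm and 37 named 1 gene.

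Neighbouring genes with changes in opposite directions, seen after the values were known, included AT5G02230 and AT5G02240 (-2.71 and 0.49 on the log2 scale), AT3G56270 and AT3G56290 (0.55 and -2.17), and AT3G13670 and AT3G13672 (0.52 and -1.81). PDF1.2, a defensin gene of the jasmonate response, was at least 2.88-fold higher at 6pm, and AT5G44410 beside it differed by 0.68.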
